A study of Mus musculus with 6 samples.

Results

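The genes described here encode receptors of the SLAM family, the receptor CD2, and SH2 adaptor proteins. They were measured in type 1 innate lymphoid cells (ILC1) of mouse liver. They were chosen by symbol, and all 9 symbols (Slamf6, Slamf7, Cd48, Cd84, Ly9, Cd2, Sh2d1a, Sh2d1b1 and Sh2d2a) had a row among the 24091 genes of the deposited count table. Messenger RNA came from 3 libraries of leukaemic and 3 of healthy C57BL/6 mice, called AML 1 to 3 and healthy 1 to 3. Leukaemic mice had received 1000000 cells of C1498, a transplantable acute myeloid leukaemia (AML) line of that strain, into a vein, and healthy mice had received none. ILC1 were taken from the livers of both groups at day 14. The labels give neither the gates used to isolate the cells, nor the sex and age of the mice, nor whether a library holds 1 animal or a pool, so the p-values below cover the spread among the libraries only, part of which may be technical. The question is how the message of this receptor and adaptor system differs between ILC1 of leukaemic and of healthy liver.

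SLAM receptors are immunoglobulin-like surface proteins through which blood cells touch each other. Most bind a copy of themselves on the neighbouring cell, whereas CD48 is held by a lipid anchor and serves as the ligand of the receptors 2B4 (encoded by Cd244) and, in rodents, CD2. Several receptor tails carry a tyrosine motif, the immunoreceptor tyrosine-based switch motif, that docks the small adaptors SAP (Sh2d1a) and EAT-2 (Sh2d1b1). In NK cells and related lymphocytes these adaptors turn the receptors towards activation, and without them the same tails can recruit inhibitory phosphatases. Sh2d2a encodes TSAd, an SH2 adaptor that binds the kinase LCK and is not a partner of the switch motif in the way SAP is.

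The codons of this docking motif are shown because SAP and EAT-2 dock at this motif in the receptor tails. In the GENCODE M21 annotation (GRCm38, the mm10 assembly), the transcript with the longest coding sequence was searched in frame for codons of threonine, any residue, tyrosine, 2 of any residue, and valine or isoleucine. Of 21725 coding genes searched, 7.89% held at least 1 such run and 0.603% held 2 or more. The runs of Cd244 (named Cd244a in that annotation), Ly9, Cd84, Slamf6 and Slamf7 follow, each 5′ to 3′ on the coding strand with the tyrosine codon in capitals, and all on chromosome 1.
Cd244, tyrosine codon 266 of 397: acaataTATgaatatgtc
Cd244, tyrosine codon 325 of 397: accatgTACtctatgata
Cd244, tyrosine codon 344 of 397: acagtaTATtcagtagtc
Cd244, tyrosine codon 369 of 397: accgtgTACgaggaggtt
Ly9, tyrosine codon 587 of 654: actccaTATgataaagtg
Ly9, tyrosine codon 625 of 654: acaatcTACtgctctgtg
Cd84, tyrosine codon 265 of 329: acagtaTATgctgtagtt
Cd84, tyrosine codon 300 of 329: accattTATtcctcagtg
Slamf6, tyrosine codon 295 of 351: actgtgTATgcacaagtc
Slamf6, tyrosine codon 319 of 351: acaattTACtccatagtt
Slamf7, tyrosine codon 302 of 335: acatttTATtccactgtg
Cd244 held 4 runs, Ly9, Cd84 and Slamf6 held 2 each, and Slamf7 held 1. In these 5 genes every run had at most 72 codons after its tyrosine, except the first of Cd244, which had 131. Cd48 held 1 run starting at codon 105 of 240, which in a lipid-anchored protein lies outside the cell. Of the other receptors Slamf1 held 2 runs and Slamf8 held 1, with its tyrosine at codon 116 of 278 and 162 codons after it. As in Cd48, a match of these letters need not be a docking site in a tail. Slamf9, Cd2 and the adaptors Sh2d1a, Sh2d1b1 and Sh2d2a held none. For example, the Slamf7 run lies in exon 6 of 6, at chr1:171636327-171636344 on the minus strand.

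The receptor genes Ly9, Slamf7, Cd48, Cd84 and Slamf6 form a cluster on chromosome 1. In the count table, taken as mm10, the cluster runs over 365 kb from Ly9 (171588613 to 171607410) through Slamf7 (171632403 to 171653037), Cd48 (171682055 to 171705257) and Cd84 (171839697 to 171890718) to Slamf6 (171917537 to 171953167). Between them the table holds Slamf1 and the microRNA gene Mir7683, which lies inside Slamf7 and had at most 4 reads in any library. Sh2d1b1 also lies on chromosome 1 (170277324 to 170285662). Cd2 (101275908 to 101287939) and Sh2d2a (87846755 to 87855722) lie on chromosome 3, and Sh2d1a (42502453 to 42522095) lies on the X chromosome.

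Depth was similar in the groups, with total counts of 45135093 to 51284691 per library. CPM below are reads per 1000000 reads of the scaled library size. All 9 ILC1 markers of the list written for the purpose were detected in every library. Their summed level was 6171 to 6374 CPM in healthy and 5844 to 6529 CPM in AML libraries. Cxcr6 was lower in every AML library, at 854 to 1033 CPM in healthy and 667 to 797 CPM in AML libraries. Ncr1 was higher in every AML library, at 1458 to 1552 CPM against 1558 to 1813 CPM. The other ILC1 markers overlapped. Among the markers of conventional NK cells Klra4 had 0 reads, and the summed level of the 8 genes was 52.5 to 58.5 CPM in the healthy and 68.4 to 116 CPM in the AML libraries. The largest part was Ly6c2, at 23.5 to 25.6 CPM in the healthy and 26.6 to 54.9 CPM in the AML libraries. Zeb2 stood at 1.95 to 8.83 CPM against 8.79 to 17.6 CPM. Ly6c2 was the only gene of this list for which the groups did not overlap. The 12 markers of Kupffer cells and macrophages summed to 31.9 to 109.9 CPM in the healthy and 141 to 218 CPM in the AML libraries, and healthy 1 was the highest of its group. The 9 T cell markers summed to 1558 to 1850 CPM in the healthy and 1200 to 1498 CPM in the AML libraries, most of it Cd3g, at 1317 to 1646 CPM in the healthy and 951 to 1293 CPM in the AML libraries. Of the other T cell markers Bcl11b stood at 101 to 122 CPM, Cd28 at 30.4 to 119.9 CPM, Cd3e at 6.20 to 39.6 CPM, Cd3d at 14.1 to 29.03 CPM and Cd8a at 3.04 to 16.5 CPM over the 6 libraries, and Cd4, Cd8b1 and Cd5 stayed at or below 7.71 CPM. In sign, 3 of the 9 T cell markers were higher and 6 lower in AML. The 8 B cell markers summed to 6.73 to 11.7 CPM in the healthy and 8.86 to 11.3 CPM in the AML libraries, with Pax5 at 0 reads. The 8 monocyte and neutrophil markers summed to 171 to 636 CPM in the healthy and 596 to 729 CPM in the AML libraries, and healthy 1 again stood apart from its group. In such bulk libraries, fewer cells of a type and less RNA per cell cannot be told apart.

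The members fell into a wide range of levels. Levels of different genes are compared as RPKM, reads per kilobase of the gene length in the count table and scaled to the library size as CPM are. Cd48 was the most abundant member, at 439.6 ± 3.39 RPKM in healthy and 485 ± 9.94 RPKM in AML libraries (SD, n = 3 each), above 99.2% of the tested genes. Its receptors followed, with Cd244 at 169.8 ± 3.15 against 167 ± 6.58 RPKM and Cd2 at 174 ± 16.7 against 155 ± 3.92 RPKM. The ranges of Cd244 and Cd2 over the 6 libraries overlapped, so these neighbours did not differ beyond their spread, whereas Cd48 lay above both in every library.

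Sh2d2a, Ly9 and Slamf7 came next, at 128 ± 8.24, 109 ± 3.85 and 94.01 ± 2.39 RPKM in healthy libraries. Over the 6 libraries the range of each of these genes overlapped that of its neighbour in this order. Below them stood Sh2d1b1 at 39.7 ± 3.61 RPKM and Cd84 at 12.7 ± 1.29 RPKM in healthy libraries, with no overlap between them. Sh2d1a was far lower, at 2.01 ± 0.163 RPKM in healthy libraries, so that among the adaptors of the switch motif the EAT-2 message outweighed the SAP message in every library. Slamf6, known as Ly108 and as a mark of stem-like T cells, was the lowest member, at 0.0215 ± 0.0188 RPKM in healthy libraries, above 0.610% of the tested genes.

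**Figure D1:**
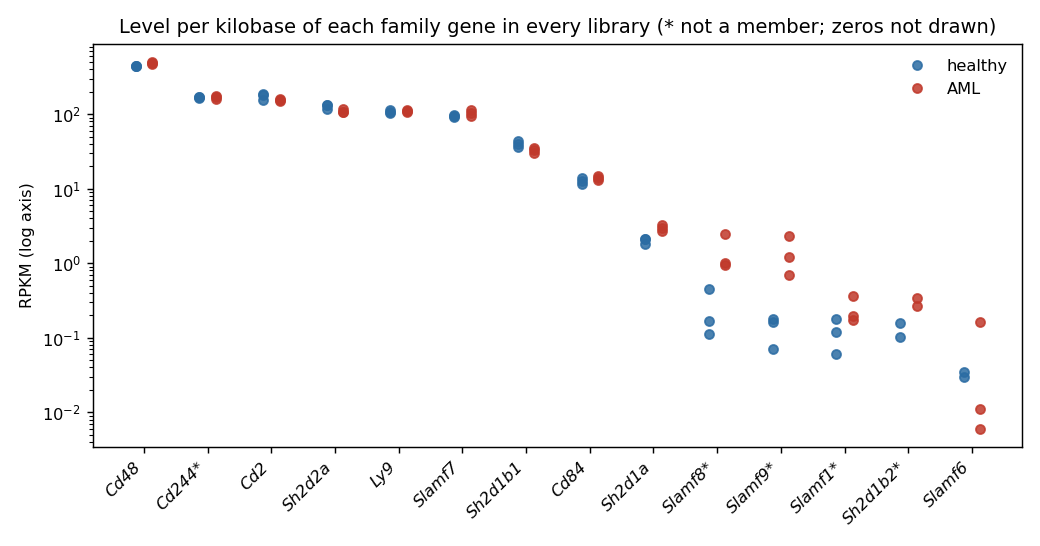
RPKM on a log axis of each family gene in every library, healthy in blue and AML in red, ordered by the mean over 6 libraries; an asterisk marks a gene that is not a member. Cd48 stands on top at 437 to 495 RPKM and Slamf6 at the bottom with at most 0.162 RPKM.

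This order depended in part on the length used. With the length of the transcript searched above in place of the length in the table, an alternative chosen after the data were seen, Sh2d2a stood at 336 RPKM and Slamf7 at 238 RPKM in healthy libraries, next in order behind Cd48 at 422 RPKM. Sh2d1b1 then stood at 22.3 RPKM, just below Cd84 at 24.2 RPKM. The lowest members in that order were again Sh2d1a and Slamf6.

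Along the cluster, stretches with many and with very few reads alternated. Ly9, Slamf7 and Cd48, which are adjacent, lay between 91.4 and 495 RPKM in every library. Slamf1, the founding receptor of the family, lay between 0.0613 and 0.360 RPKM. Cd84, beyond it, lay between 11.5 and 15.0 RPKM, and Slamf6, the last, had 12, 0 and 10 reads in the healthy and 53, 4 and 2 reads in the AML libraries.

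**Figure D2:**
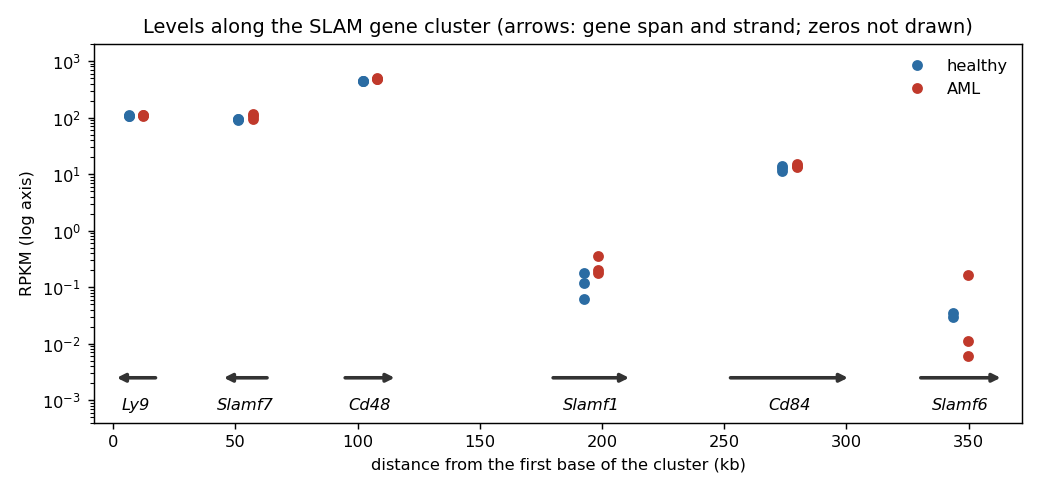
RPKM on a log axis of the SLAM genes along their chromosome 1 cluster, against the distance in kb from the first base of Ly9, with healthy libraries in blue and AML libraries in red; arrows give the span and strand of each gene. Slamf1, at 0.0613 to 0.360 RPKM, lies between Cd48 and Cd84, which are at 437 to 495 and 11.5 to 15.0 RPKM.

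Promoter windows are shown for 3 members on chromosome 1 that stood at the top, in the middle and at the bottom of the levels. RefSeq (GRCm38.p6) windows of 250 bases before to 50 after the transcription start were matched for 5 of the 9 members, Cd48, Cd84, Slamf6, Slamf7 and Sh2d1b1. Capitals mark matches, on either strand, to the Runx letters TGTGGT or the AP-1 letters TGANTCA, and no match of one overlapped the other. The Cd48 window is chr1:171681742-171682041, that of Sh2d1b1 is chr1:170277068-170277367 and that of Slamf6 is chr1:171917212-171917511, all on the plus strand.
Cd48 promoter window: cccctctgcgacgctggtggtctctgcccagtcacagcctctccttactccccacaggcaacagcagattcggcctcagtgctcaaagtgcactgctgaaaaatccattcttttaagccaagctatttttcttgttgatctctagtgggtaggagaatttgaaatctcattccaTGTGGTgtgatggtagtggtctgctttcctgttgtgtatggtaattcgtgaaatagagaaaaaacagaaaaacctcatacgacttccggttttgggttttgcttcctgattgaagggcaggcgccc
Sh2d1b1 promoter window: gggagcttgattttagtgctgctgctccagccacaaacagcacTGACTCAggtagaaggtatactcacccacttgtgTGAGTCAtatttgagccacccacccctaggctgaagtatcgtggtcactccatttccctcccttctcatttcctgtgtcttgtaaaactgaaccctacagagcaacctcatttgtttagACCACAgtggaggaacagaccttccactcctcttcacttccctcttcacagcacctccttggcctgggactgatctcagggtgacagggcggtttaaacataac
Slamf6 promoter window: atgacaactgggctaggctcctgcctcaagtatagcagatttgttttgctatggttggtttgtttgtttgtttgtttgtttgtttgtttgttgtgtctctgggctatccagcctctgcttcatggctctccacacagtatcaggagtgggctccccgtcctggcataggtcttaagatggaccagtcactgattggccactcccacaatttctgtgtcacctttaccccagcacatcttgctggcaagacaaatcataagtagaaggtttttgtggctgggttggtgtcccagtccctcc
TGTGGT was found in the windows of Cd48, Cd84 and Sh2d1b1, and in 16.8% of all 32851 windows. TGANTCA was found in those of Cd84, Slamf7 and Sh2d1b1, the last with 2 matches, and in 7.81% of all windows. The T-box letters AGGTGTGA, present in 1.28% of windows, and the STAT letters TTCNNNGAA, in 8.30%, were found in none of the 5. The Slamf6 window held none of the 4 sets of letters. These matches describe the letters of the windows only.

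Between the groups the fitted log2 fold changes of the members ran from -0.27 for Sh2d1b1 to 1.45 for Slamf6, a gene with few reads. No member passed an adjusted p of 0.05 in the quasi-likelihood test of edgeR, fitted on all 12469 tested genes and adjusted over them by the Benjamini-Hochberg method, nor did any other gene, so that the background share was 0%. All 9 members were tested. The smallest adjusted p among them was 0.487, for Sh2d2a. At an unadjusted p below 0.05 there were 2 members, both lower in AML, Sh2d2a and Sh2d1b1, where 8.84% of all tested genes reached that level, 3.75% lower and 5.08% higher. The AML and healthy libraries did not overlap for 4 members, with Cd48 and Sh2d1a above and Sh2d1b1 and Sh2d2a below, where 15.5% of all tested genes did not overlap, 8.2% above and 7.34% below. In sign, 6 members were higher and 3 lower, where 52% of all tested genes were higher and 48% lower. The median log2 fold change, AML minus healthy, was 0.14 over the 9 members and 0.01 over all tested genes. By DESeq2, by the likelihood ratio test of edgeR and by limma-voom 0 members were called as well, although DESeq2 called 143 and the likelihood ratio test 100 genes over the whole table.

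**Figure D3:**
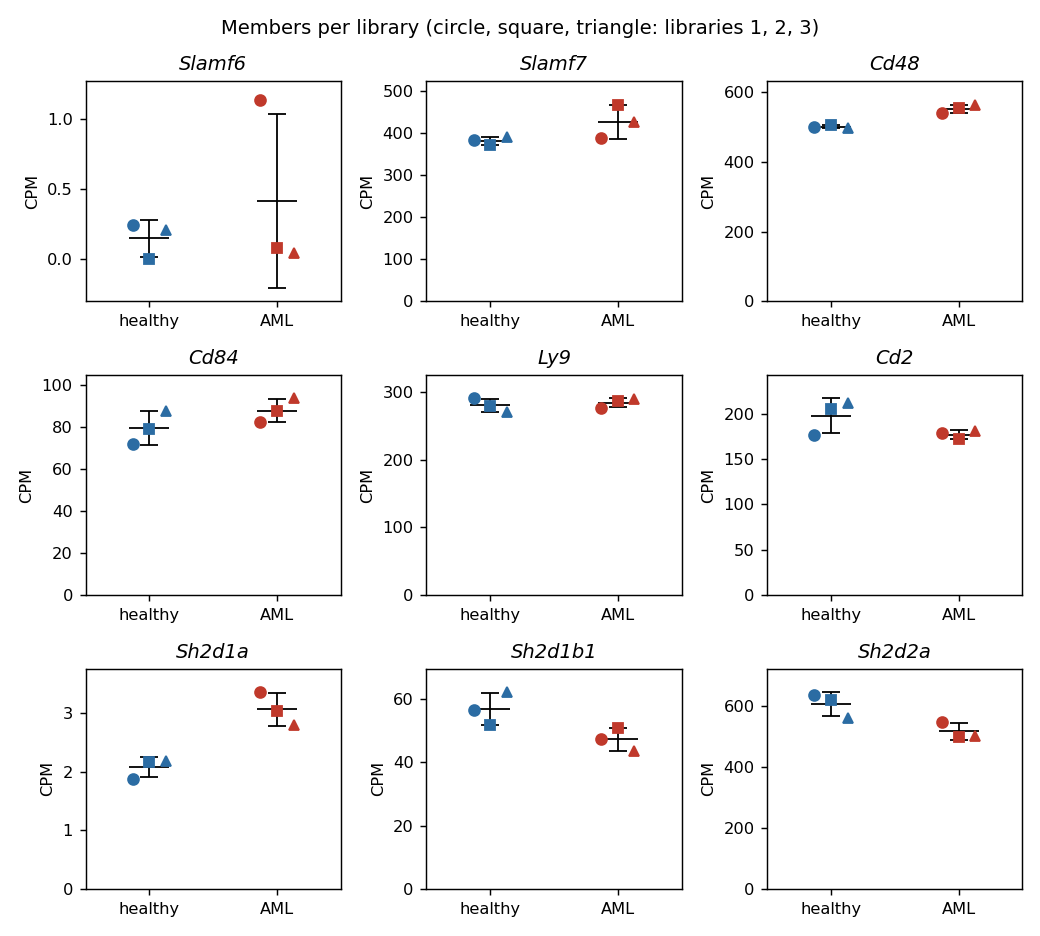
CPM of each member in every library, with healthy in blue, AML in red, and a circle, square and triangle for libraries 1, 2 and 3; the long bar is the mean and the whiskers are 1 SD (n = 3). The groups are apart for Cd48, Sh2d1a, Sh2d1b1 and Sh2d2a and overlap for the others; the Slamf6 mean in AML rests on AML 1, at 1.13 CPM.

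Among the ligands, Cd48 stood at 499, 505 and 497 CPM in the healthy and at 541, 553 and 563 CPM in the AML libraries. The lowest AML library exceeded the highest healthy library, and the healthy libraries were close together. The log2 fold change was 0.14 ± 0.06 (SE), with an unadjusted p of 0.0505 and an adjusted p of 0.565, and its 95% interval ran from -0.0004 to 0.29. CD48 is also made by other blood cells, macrophages and dendritic cells among them. The summed macrophage markers, at 31.9 to 109.9 CPM in the healthy and 141 to 218 CPM in the AML libraries, moved in the same direction. The T cell sum, mostly Cd3g, moved the other way, at 1558 to 1850 CPM in healthy and 1200 to 1498 CPM in AML libraries. In sign, 6 of the 9 T cell markers were lower and 3 higher in AML. The sums of the B cell markers and of the monocyte and neutrophil markers overlapped. The 9 dendritic cell markers summed to 715 to 788 CPM in the healthy and 702 to 795 CPM in the AML libraries, and the groups overlapped. Most of that sum was Itgax, at 672 to 769 CPM over the 6 libraries. In sign, 8 of the 9 dendritic cell markers were higher and 1 lower in AML. Of them Siglech, Ccr9 and Batf3 were higher in every AML library than in every healthy library, and the others overlapped. The part of these cell types in the Cd48 difference was not tested. Left-out libraries took the log2 fold change of Cd48 from 0.13 to 0.16.

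For neither receptor of CD48 were the groups apart. Cd244 stood at 695, 699.8 and 676 CPM in the healthy and at 681, 703 and 649.9 CPM in the AML libraries, and the groups overlapped. Its log2 fold change was -0.03 ± 0.07 (SE), with a 95% interval from -0.18 to 0.13. Cd2, an adhesion receptor with a proline-rich tail, stood at 176, 205 and 212 CPM in the healthy and at 178, 172 and 181 CPM in the AML libraries. Healthy 1 lay among the AML libraries, so the groups overlapped, and the log2 fold change was -0.16 ± 0.09 (SE; adjusted p = 0.605). It was -0.24 without healthy 1 and -0.12 without healthy 3. The ratio of Cd48 to Cd2 reads per kilobase, which no scaling factor enters, was 2.83, 2.46 and 2.35 in healthy and 3.03, 3.22 and 3.12 in AML libraries. Each AML library had a higher ratio than each healthy library, but this ratio was chosen after its values were seen.

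Among the receptors that bind themselves, Slamf7, known as CRACC and as the target of an antibody used in myeloma, stood at 384, 371 and 390.3 CPM in the healthy and at 387, 468 and 426 CPM in the AML libraries. AML 1 lay among the healthy libraries and the other two AML libraries lay above them. The log2 fold change was 0.16 ± 0.08 (SE), with an adjusted p of 0.596, and it was 0.23 without AML 1 and 0.09 without AML 2. Of the Slamf7 exon bases 9.24% are shared with the antisense gene Gm37787 in GENCODE, and the libraries keep no strand, so reads of the pair there cannot be told apart.

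Cd84, another self-binding receptor, stood at 71.7, 78.9 and 87.8 CPM in the healthy and at 82.5, 87.4 and 93.6 CPM in the AML libraries. The groups overlapped, and the healthy libraries spanned a wider range than the AML libraries. Its log2 fold change was 0.14 ± 0.10 (SE; adjusted p = 0.661), and it was 0.07 without healthy 1 and 0.10 without AML 3. Ly9, or CD229, stood at 291, 279 and 271 CPM in the healthy and at 277, 286 and 289 CPM in the AML libraries. All 6 values of Ly9 lay close together. Its log2 fold change was 0.02 ± 0.07 (SE) with a 95% interval from -0.13 to 0.17, which leaves out a change of 1.13-fold or more in either direction.

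Slamf6 was close to the limit of detection. Its 12, 0 and 10 healthy reads and 53, 4 and 2 AML reads equal 0.243, 0, 0.208, 1.13, 0.0766 and 0.0421 CPM, where 3 reads, taken as the limit that a count of 0 allows, equal 0.0585 to 0.0665 CPM of the library total (counting error only). AML 1 alone stood above 1 CPM, and the other AML libraries were below healthy 1 and healthy 3. The fitted log2 fold change of 1.45 ± 1.45 (SE) had an adjusted p of 0.759, and without AML 1 it was -1.30. The T cell marker Cd28 was also highest in AML 1, at 119.9 CPM against 30.4 to 67.2 CPM in the other libraries. Most T cell markers went the other way. Cd3e, at 6.20 CPM, Cd3d, Cd3g, Cd8a, Cd8b1 and Bcl11b were lowest in AML 1, and Cd4 and Cd5 were neither highest nor lowest. The sum of the 9 T cell markers was also lowest there, at 1200 CPM. Their part in the Slamf6 value was not tested.

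The adaptors differed in direction. Sh2d1b1, which encodes EAT-2, stood at 56.3, 51.8 and 62.1 CPM in the healthy and at 47.3, 50.9 and 43.4 CPM in the AML libraries. The highest AML library stayed under the lowest healthy library, though AML 2 came close to healthy 2. The log2 fold change was -0.27 ± 0.10 (SE), with an unadjusted p of 0.0320 and an adjusted p of 0.535. Sh2d1b2, the neighbouring and closely related gene, had 2, 0 and 3 reads in healthy and 5, 7 and 0 reads in AML libraries, so few reads are counted there, although reads that fit both genes could be assigned to either.

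Sh2d1a, which encodes SAP, the protein lost in X-linked lymphoproliferative disease, had 93, 108 and 105 reads in healthy and 157, 159 and 133 reads in AML libraries. These equal 1.88, 2.17 and 2.181 CPM against 3.36, 3.04 and 2.80 CPM. The lowest AML library exceeded the highest healthy library. The log2 fold change was 0.56 ± 0.26 (SE), with an unadjusted p of 0.0676 and an adjusted p of 0.569. GENCODE places exons of Tenm1, on the other strand, over 26.6% of the Sh2d1a exon bases. In the count table the spans do not overlap, as Sh2d1a ends at 42522095 and Tenm1 starts at 42532393, and Tenm1 had 0 reads in all 6 libraries. The Sh2d1a length in the count table is 1.035 kb, against 5505 exon bases in GENCODE. Reads in the remaining exon bases may therefore not have been counted. SAP is abundant in T cells, whose summed markers were lower in AML than in healthy libraries, mostly through Cd3g. In sign, 6 of the 9 T cell markers were lower and 3 higher in AML, Cd3e and Cd8a among the latter. SAP also acts in NK cells. The summed markers of conventional NK cells were 52.5 to 58.5 CPM in healthy and 68.4 to 116 CPM in AML libraries, with Ly6c2 the only marker apart. Their part in the Sh2d1a value was not tested.

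Set against each other, the adaptors of the switch motif were apart between the groups. The ratio of Sh2d1b1 to Sh2d1a reads per kilobase was 21.7, 17.3 and 20.6 in healthy and 10.2, 12.1 and 11.2 in AML libraries. All AML ratios were below all healthy ratios, with means of 19.9 ± 2.29 and 11.2 ± 0.955 (SD, n = 3 each). The ratio was chosen after the values were seen and rests on 93 to 159 Sh2d1a reads per library. Neither gene passed on its own.

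**Figure D4:**
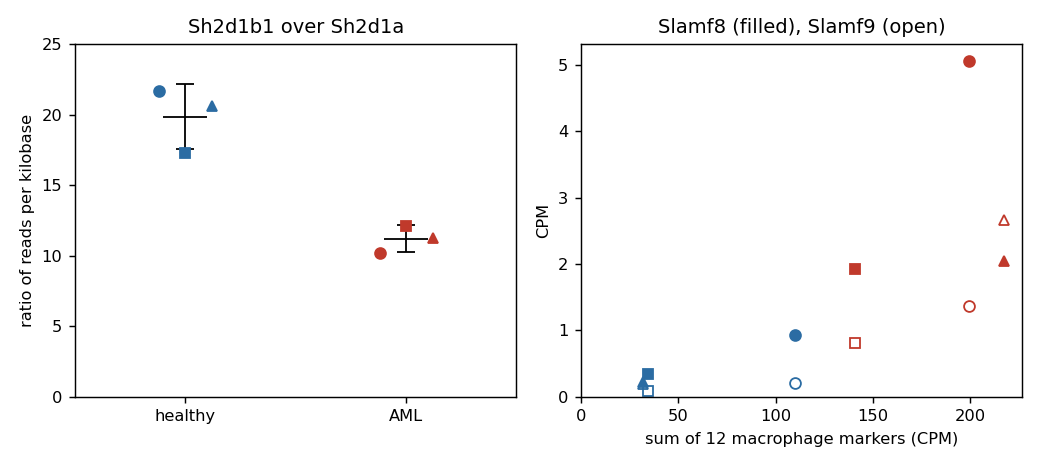
Left, ratio of Sh2d1b1 to Sh2d1a reads per kilobase in each library (bar, mean; whiskers, 1 SD, n = 3), at 17.3 to 21.7 in healthy and 10.2 to 12.1 in AML libraries. Right, CPM of Slamf8 (filled) and Slamf9 (open) against the summed CPM of 12 macrophage markers, healthy in blue and AML in red; for each gene the AML libraries have the highest values on both axes.

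Sh2d2a, the gene of TSAd, stood at 637, 623 and 563 CPM in the healthy and at 550.4, 499.8 and 503 CPM in the AML libraries. Each AML library lay below each healthy library, with the smallest gap between healthy 3 and AML 1. It had the smallest p of the members, with a log2 fold change of -0.23 ± 0.08 (SE), an unadjusted p of 0.0201 and an adjusted p of 0.487. The ratio of Sh2d2a to Sh2d1b1 reads per kilobase was 3.25 ± 0.463 in healthy and 3.31 ± 0.312 in AML libraries, with overlapping groups. Over the 6 libraries the genes with the highest Pearson correlation of log2 CPM with Sh2d2a were Supt3, Akr7a5 and Riox1, with r of 0.999, 0.992 and 0.991. Of the 8344 genes compared, 287 had r above 0.9 with it, and the libraries share the split into groups.

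**Figure D5:**
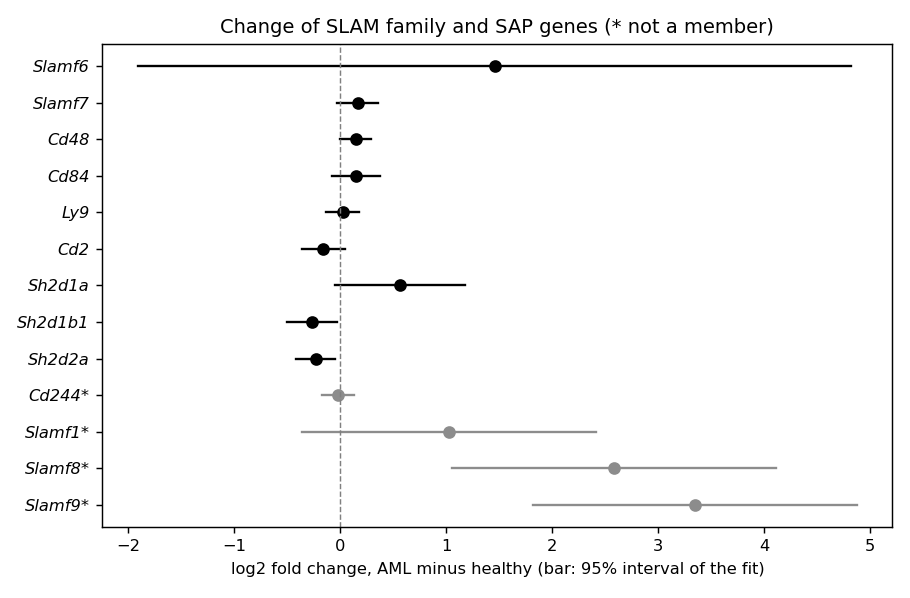
Log2 fold change, AML minus healthy, of each member (black) and of other family genes (grey, asterisk); points are estimates and bars the 95% interval of the edgeR fit. The intervals of Sh2d1b1 and Sh2d2a lie below 0, those of Slamf8 and Slamf9 above 0, and that of Slamf6 runs from -1.91 to 4.82.

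The authors' deposited table, which holds a comparison made by them, listed 8 of the members, all but Slamf6, and gave none an adjusted p under 0.05. In the authors' deposited table the log2 fold changes of Sh2d1b1, Sh2d2a and Sh2d1a were -0.26, -0.23 and 0.57, with adjusted p-values of 0.653, 0.681 and 0.855.

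Slamf8 and Slamf9, receptors of the family that myeloid cells carry, had larger fold changes than any member. Slamf8, a receptor of macrophages, had 46, 17 and 11 reads in healthy and 237, 101 and 97 reads in AML libraries, and Slamf9 had 10, 4 and 9 against 64, 42 and 127 reads. For both genes the lowest AML library exceeded the highest healthy library. Their log2 fold changes were 2.58 ± 0.66 and 3.34 ± 0.66 (SE), with unadjusted p of 0.00477 and 0.00107 and adjusted p of 0.404 and 0.399. Both stayed at or below 5.07 CPM. The summed macrophage markers given above were also higher in every AML library than in every healthy library. The summed dendritic cell markers, mostly Itgax, overlapped. Of the dendritic cell markers Siglech, Ccr9 and Batf3 were higher in every AML library than in every healthy library, and the others overlapped. Siglech, of plasmacytoid dendritic cells, had 0 CPM in each healthy library and 0.804 to 3.25 CPM in the AML libraries. Their part in the Slamf8 and Slamf9 values was not tested. Slamf1 had 30, 20 and 10 reads in healthy and 57, 31 and 32 reads in AML libraries, and its log2 fold change of 1.02 ± 0.60 (SE) had an adjusted p of 0.627.

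The kinases, phosphatases and effectors that act below SLAM receptors and CD2 were measured as a list of 30 genes, all tested. Of these 0 passed an adjusted p of 0.05. In sign, 14 were higher and 16 lower in AML, with a median log2 fold change of -0.02 against 0.01 over all tested genes. At an unadjusted p below 0.05 there were 3 of the 30, a share near the 8.84% of all tested genes at that level, so the count is no result about the list. Of these Vav2 was higher and Vav1 and Lat2 were lower, and they are named, with the next by p, for the size of their p alone. Vav1 and Vav2 encode guanine nucleotide exchange factors. Vav1 stood at 431 ± 9.12 CPM in the healthy and at 370.4 ± 23.9 CPM in the AML libraries, a log2 fold change of -0.22 ± 0.07 (SE; adjusted p = 0.479). Vav2 stood lower, at 8.45 ± 2.71 against 14.7 ± 1.79 CPM. The membrane adaptor gene Lat2 had a log2 fold change of -0.18 ± 0.07 (SE), and the next by p were Lck, a kinase bound by TSAd, at -0.16 ± 0.08, and Pag1, an adaptor that holds the kinase CSK, at -0.31 ± 0.14.

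Fyn, Ptpn6 and Inpp5d were named for their roles and not by their values. Fyn, the kinase that SAP brings to the receptors, stood at 509 ± 22.5 CPM in the healthy and at 434 ± 73.9 CPM in the AML libraries, and its log2 fold change was -0.23 ± 0.12 (SE). The phosphatase genes Ptpn6 and Inpp5d, which encode SHP-1 and SHIP-1, had log2 fold changes of -0.15 ± 0.10 and -0.02 ± 0.08 (SE). None of these passed, with adjusted p-values of 0.599, 0.649 and 0.947.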

How the data were processed

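Poly(A) RNA-seq without strand information was made from liver ILC1 of 3 AML and 3 healthy mouse libraries, per the labels' protocols. The authors deposited raw read counts per gene. The authors' deposited table of their comparison holds, per the file headers, log2 fold changes, a likelihood ratio score, p-values and adjusted p-values, beside values per library that are RPKM, since only 0.0154% are whole numbers. Tools in the submitters' processing notes are edgeR 3.28.1, HTSeq 0.6.0 and STAR 2.6.0, with builds mm10 and hg19. How reads matching several genes were counted is not given in the sources used here.

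Counts were tested with edgeR 4.0.16 in R 4.3.3 (quasi-likelihood F test, TMM scaling, filterByExpr at a minimum count of 10, group only, two-sided, adjusted over 12469 genes), and the script was tested on simulated data. The SE is the fold change divided by the root of F. Library totals were 45135093 to 51284691. All members were named by rule, as were, for the other receptors and the 30 signalling genes, those past the threshold or else every measured receptor and the 5 signalling genes with the smallest p. For the member with the smallest p the 3 most correlated genes were named, at a mean of at least 10 CPM and with 0.5 added to CPM. Members and lists were chosen with earlier results of these data known. A protein table was not used here, so coding sequences were searched instead. Alternatives were other scalings, filters, tools (DESeq2 1.42.0, limma 3.58.1), a replicate block and left-out libraries.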

Additional observations from a re-analysis of the deposited data

How the results depend on the processing

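No member passed an adjusted p of 0.05 under any of the 16 alternatives run, where the smallest adjusted p was 0.171, for Sh2d2a. Slamf6 was tested in 14 of the 16, and fell to the filter at a minimum count of 50 and without both healthy 1 and AML 1. Over all genes, the count of 0 became 1 with upper quartile factors, 2 with library totals only, 2 with no filter on low counts, 143 by DESeq2 and 100 by the likelihood ratio test. It ran from 0 to 147 over single left-out libraries, with 89 without healthy 1 and 147 without AML 1, and was 444 without both. At an unadjusted p below 0.05 in the main test there were 1102 genes. The causes were not tested. Of the members' fold changes under these alternatives 140 of 142 kept their direction. The log2 fold change of Ly9 was -0.0131 without healthy 3 (left-out libraries, -0.0131 to 0.0437), and that of Slamf6 was -1.30 without AML 1 (-1.30 to 1.99). Sh2d2a had an unadjusted p below 0.05 in 12 of 16 alternatives and Sh2d1b1 in 9 of 16. Other scalings moved the median fold change of all genes by at most 0.06 (log2).

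With the replicate number as a block, 0 genes passed, and the log2 fold changes of Sh2d1b1 and Sh2d2a were -0.26 and -0.23. Deviations of the libraries that share a number correlated at 0.13, -0.11 and 0.22, so the numbers were not taken to pair the samples. AML 1 and AML 2 each correlated better with a library of another number. Depth limits most the family genes at up to 5.07 CPM, which are Sh2d1b2 (at most 7 reads, not tested), Slamf6, Slamf1, Slamf8, Slamf9 and Sh2d1a.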
